A study of Danio rerio with 4 samples.

Results

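Of the genes that separated *apln*:Venus positive, mCherry negative cells from the other cells of the zebrafish larval head, 57 had 0 reads in both Venus positive libraries and reads in both double negative libraries. These genes were chosen by their measured read counts, as the entries of the deposited table with 0 reads in each Venus positive library. This held for 60 of 756 genes (7.94% of the table), and 3 of the 60 were left out by symbol, namely *gfi1b* and the genes whose symbols start with hb, krt or slc (*hbae5* and *slc29a1b*). The table holds only genes that had passed the authors' comparison of the groups at a Q value under 0.05. In the Venus positive cells 271 of these genes (35.8%) were lower and 485 were higher, so the 57 genes are 21.0% of the lower genes. Since the 0 reads themselves chose the genes, every difference between the groups below is a description without a test.

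The cells came from heads dissected at 48 hours post fertilization (hpf) from larvae labelled wildtype that carried the transgenes *Tg(kdrl:Hsa.HRAS-mCherry)* and *TgBAC(apln:Venus-PEST)*. In the *apln* reporter *apln* regulatory DNA on a bacterial artificial chromosome drives a short-lived Venus, and in the other the *kdrl* promoter drives a membrane-bound mCherry in endothelial cells. Fluorescence-activated cell sorting gave 2 libraries for the Venus positive, mCherry negative gate and 2 for the double negative gate, all labelled as mixed cell types. Whether the libraries of a group stem from separate clutches or separate sorts is stated nowhere in the labels or methods, so their spread may be technical.

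The gene whose regulatory DNA drives Venus, *apln*, matched the labels. It had 8756 and 10257 reads in the Venus positive libraries, against 792 and 784 reads in the double negative libraries. The double negative libraries thus also held *apln* reads. The listed genes summed to 876555 and 1111642 reads in the Venus positive libraries numbered 3 and 4 in the table, and to 1175527 and 1136928 reads in double negative replicates 1 and 2. These sums cover a selected list, and how deep each library was sequenced is not stated. The 57 genes together took 0 reads in the Venus positive libraries, against 0.336% and 0.316% of the listed reads in double negative replicates 1 and 2.

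The larval head holds brain, eye and ear, skin, jaw and eye muscle, and circulating blood cells. Many genes of these tissues are restricted to a single lineage: Gata1 switches on the red cell program, Myf5 the myogenic program, and crystallins and connexins give the lens fibre its transparency and its coupling. A bulk library adds up all cells of a sort, so fewer cells of a type and less RNA per cell cannot be told apart.

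In the double negative cells most of the 57 genes were at a low level. Their mean read count over the double negative libraries ran from 31 to 473.5 with a median of 50.7, against a median of 402 for the other 211 lower genes. Only 6 of the 57 had a mean of 100 reads or more, and 27 had under 50. On the per-length scale the group average of the authors was 0.24 to 17.5 TPM (transcripts scaled to a fixed total and corrected for gene length) with a median of 2.57 TPM, against a median of 23.1 TPM for the other lower genes. A total of 3 genes reached 10 TPM, 21 were under 2 TPM and 5 were under 1 TPM.

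Where 0 reads were counted, as many as 3 reads per library stay possible, or 3.21 normalized reads on the authors' scale of the Venus positive group. Against this limit, and with the double negative mean taken as exact, the 57 genes were at least 9.01-fold to at least 138-fold lower. The median was at least 14.7-fold lower in the Venus positive cells. If the Venus positive cells had held the genes at the level of the double negative cells, their libraries would have shown a mean of 27.0 to 413 reads of each gene (median 44.2). This uses the scale of the group, not of each library. The reads carry no molecular identifiers, so the limits cover counting error of the Venus positive libraries only. Counting error of the double negative libraries and the spread between them are not covered, here and in the folds below. The gene farthest apart, *si:dkey-269i1.4*, had 4.16 and 121 reads in double negative replicates 1 and 2. In replicate 1 alone it was thus close to the 3-read limit. In the plot of reads per library the double negative values of all 31 genes with gene names lie to the right of the 3-read limit.

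**Figure D1:**
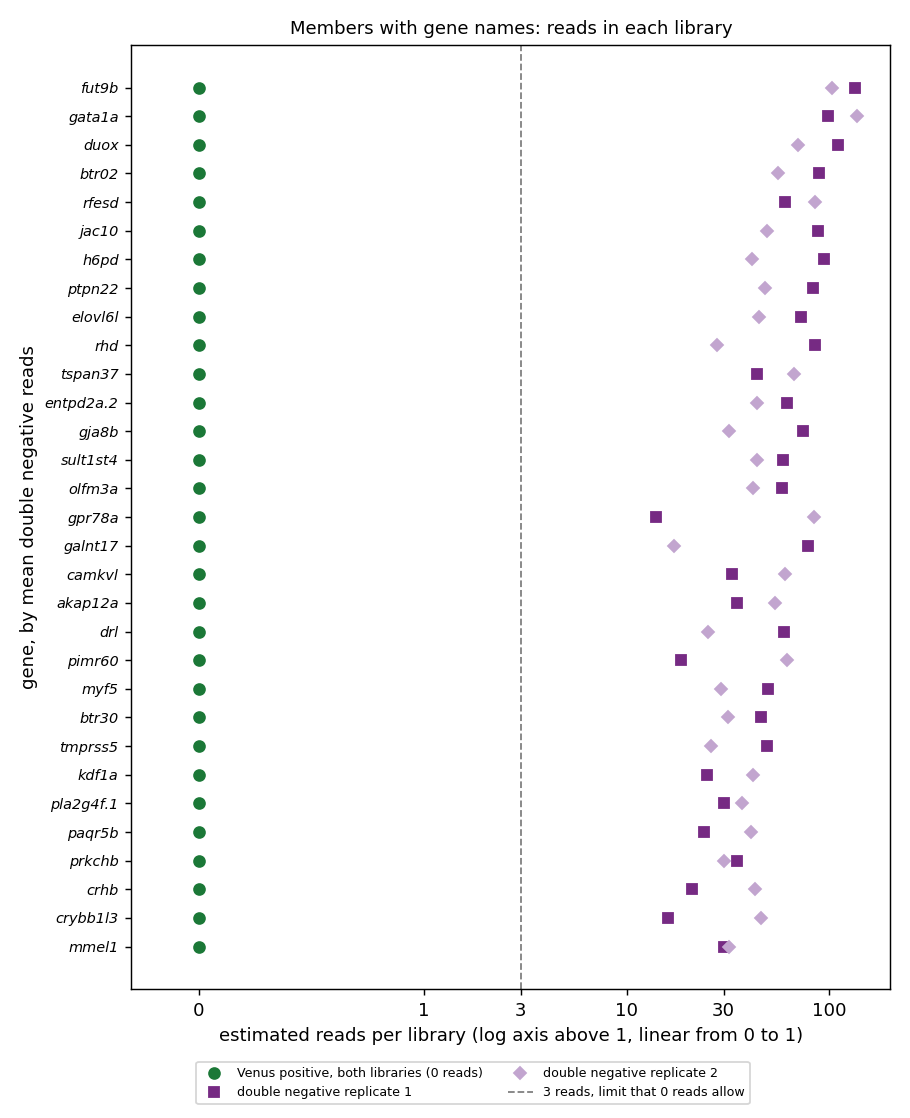
Estimated reads per library (horizontal axis, linear from 0 to 1 and logarithmic above) of the 31 genes with gene names, ordered by their mean in the double negative libraries. Circles are both Venus positive libraries, at 0 by the way the genes were chosen, squares and diamonds are double negative replicates 1 and 2, and the dashed line is the limit of 3 reads that 0 reads allow. The double negative values run from 14 reads (*gpr78a*, replicate 1) to 136 reads (*gata1a*, replicate 2).

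By reads, the first place was held by an uncharacterized gene, *zgc:154054* (NCBI gene 777616), with 0 reads in each Venus positive library, against 551 and 396 reads in double negative replicates 1 and 2. At 17.5 TPM in the double negative cells it was also first per length, and its level in the Venus positive cells was at least 138-fold lower. It stood well apart from the second gene, *zgc:100868* (NCBI gene 554458), with 0 reads in each Venus positive library, against 188 and 158 reads in double negative replicates 1 and 2, and at least a 50.3-fold lower level. Of the 57 genes, 26 had such automatic identifiers, and the RefSeq gene table gave a gene name for 6 of these. Rank 3 by reads was among them: *zgc:86586*, listed in RefSeq as *b3gnt3.1* and encoding an N-acetylglucosaminyltransferase, had 0 reads in each Venus positive library, against 190 and 137 reads in the double negative libraries (12.6 TPM). This gene and the further automatic identifiers named here were picked after their values had been seen.

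By reads, the highest gene with a gene name was *fut9b* (NCBI gene 492813), of the family of fucosyltransferases that add fucose to the ends of glycans. It had 0 reads in each Venus positive library, against 133 and 103 reads in the double negative libraries (7.30 TPM), and was at least 34.3-fold lower in the Venus positive cells. Next by reads came *gata1a* (NCBI gene 30481), the transcription factor that commits blood precursors to the red cell lineage, with 0 reads in each Venus positive library, against 98 and 136 reads in the double negative libraries (7.37 TPM). *duox* (NCBI gene 565097), a dual oxidase that releases hydrogen peroxide in skin and in the thyroid gland, was eighth by reads, with 0 reads in each Venus positive library, against 110 and 70 reads in the double negative libraries.

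Ranking by TPM kept 7 of the 10 genes highest by reads. Reads grow with transcript length at the same number of molecules, and TPM corrects for this. *rfesd*, which encodes a small Rieske iron-sulfur domain protein, had 0 reads in each Venus positive library, against 60 and 85 reads in the double negative libraries. At 9.46 TPM it ranked 4 per length. *duox* stood at rank 45 of the TPM order at 1.66 TPM, and *akap12a*, an anchoring protein of protein kinase A, at rank 56 at 0.385 TPM with 35 and 54 reads in the double negative libraries. The last place was taken by *LOC795051* at 0.24 TPM with 37 and 26 reads. Across the 57 genes, reads and TPM of the double negative cells had a Pearson's r of 0.70 and a Spearman's rho of 0.65 (both measures come from the same reads, and genes are not replicates).

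**Figure D2:**
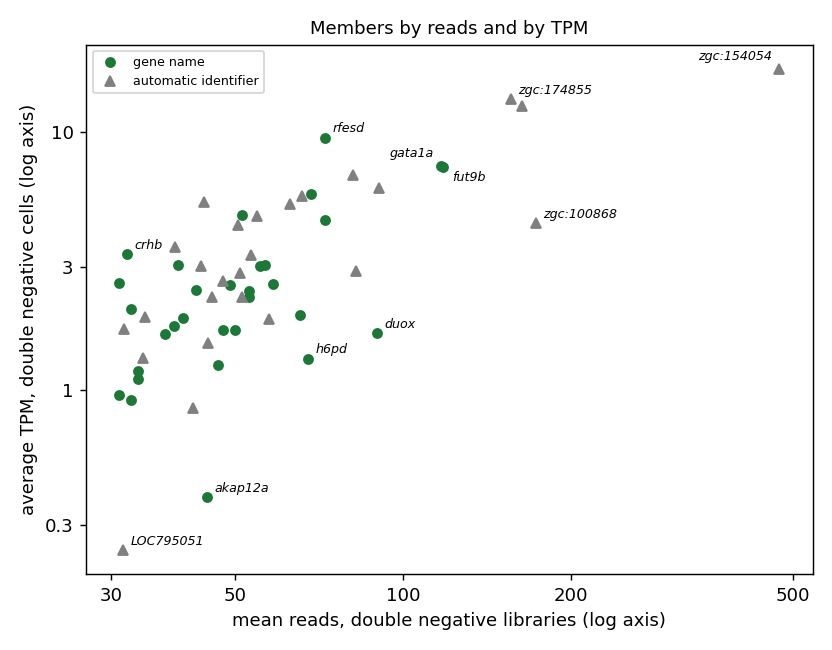
Mean estimated reads of the double negative libraries (horizontal, log axis) against the authors' average TPM of the double negative cells (vertical, log axis) for the 57 genes. Circles are genes with gene names and triangles automatic identifiers. *zgc:154054* is highest on both axes at 473.5 reads and 17.5 TPM, *rfesd* lies above the main band at 9.46 TPM, and *duox*, *h6pd*, *akap12a* and *LOC795051* lie below it at 1.66, 1.32, 0.385 and 0.24 TPM.

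The genes with gene names are described below by what they are known to do, a grouping made after their values had been seen. Some genes are known from blood cells. Of those named here, *gata1a* and *rhd* are in the erythrocyte list used below, and the others are in none of the marker lists. Besides *gata1a*, *rhd* (NCBI gene 554272), which encodes a membrane protein of the Rh family of red cells, had 0 reads in each Venus positive library, against 85 and 28 reads in the double negative libraries. The double negative libraries differed by 2.44-fold in normalized reads of *rhd*, while for *gata1a* they were 1.73-fold apart in the other direction. *drl* (draculin, NCBI gene 30167), a zinc finger gene known from early blood and lateral plate mesoderm of zebrafish, had 0 reads in each Venus positive library, against 59.75 and 25.25 reads in the double negative libraries. Its relatives *drll.1* and *drll.2*, in the table as *si:dkey-261j4.3* and *si:dkey-261j4.4*, were at 0 in the Venus positive libraries as well, against 20.9 and 42.2 reads and 56.25 and 39.0 reads in the double negative libraries. *ptpn22*, a tyrosine phosphatase that restrains signaling in leukocytes of mammals, had 0 reads in each Venus positive library, against 83 and 48 reads in the double negative libraries. *gfi1b*, left out by symbol, is a transcriptional repressor that acts in red cell and thrombocyte development. It had 0 reads in each Venus positive library, against 50 and 35 reads in the double negative libraries.

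The red cell genes can be set beside the other red cell genes of the table. Of a list of 31 genes of erythrocytes outside the globins, 2 were among the 57 (*gata1a* and *rhd*), 7 were lower in the Venus positive cells with reads left (*alas2*, *cahz*, *dmtn*, *epb41b*, *klf1*, *nt5c2l1* and *sptb*), 0 were higher and 22 were not analysed here. The level of these 7 in the Venus positive cells was 0.791% to 27.1% of that in the double negative cells, with a median of 2.38%. At this median a Venus positive library would show 2.42 reads of *gata1a* and 1.17 reads of *rhd*, under the limit of 3 reads. That limit is for 0 reads in 1 library, and a limit for 0 reads in both was not worked out. At 0.791% a library would show 0.807 and 0.390 reads, and at 27.1% it would show 27.6 and 13.3 reads. Given this range, the 0 reads of *gata1a* and *rhd* are not read as a difference from the other 7 genes. The listed genes of this kind, *gata1a* and *rhd* included, summed to 164 and 503 reads in the Venus positive libraries, against 8413 and 5509 reads in the double negative libraries. Of the Venus positive reads, 109 and 303 came from *dmtn* alone, the gene at 27.1%, which encodes a protein of the red cell membrane skeleton.

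Lens genes came with *gja8b* and *crybb1l3*. *gja8b* (NCBI gene 114403), the connexin that couples lens fibre cells, had 0 reads in each Venus positive library, against 74 and 32 reads in the double negative libraries. *crybb1l3* (NCBI gene 566891), a beta crystallin, had 0 reads in each Venus positive library, against 16 and 46 reads. The double negative libraries thus stood in opposite order for these lens genes, with replicate 1 higher in *gja8b* by 1.86-fold and replicate 2 higher in *crybb1l3* by 3.58-fold in normalized reads. Of the lens list of 31 genes, 1 further gene was lower, *grifin*, which encodes a galectin-like lens protein, with 154 and 151 reads in the Venus positive libraries, against 401 and 1145 reads in the double negative libraries. At the 22.6% of the double negative level that *grifin* kept, a Venus positive library would show 10.5 reads of *gja8b* and 6.12 reads of *crybb1l3*. Both lie above the limit of 3 reads, but the level rests on *grifin* alone. The other 28 were not among the genes of the table, which holds only genes past the authors' threshold.

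For skeletal muscle the only one of the 57 was *myf5* (NCBI gene 58097), a transcription factor of muscle precursors. It had 0 reads in each Venus positive library, against 50 and 29 reads in the double negative libraries. The muscle list of 38 genes did not move as a block. *pvalb2*, a parvalbumin of fast fibres, was lower with 1 and 0 reads in the Venus positive libraries, against 21 and 165 reads in the double negative libraries, while *actc1a*, *ttn.1* and *ttn.2*, genes of the sarcomere, were higher in the Venus positive cells. The other 33 genes of the list were not among the genes of the table.

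Some of the 57 genes are known from neurons, although none is in the neuron, neural progenitor or pituitary lists. *crhb* (NCBI gene 492507), which encodes the corticotropin-releasing hormone that drives the stress axis, had 0 reads in each Venus positive library, against 21 and 43 reads in the double negative libraries. It was at rank 53 by reads but at rank 19 per length, with 3.36 TPM. *olfm3a*, a secreted olfactomedin protein of the nervous system, had 0 reads in each Venus positive library, against 58 and 42 reads in the double negative libraries. *camkvl*, related to the CaM kinase-like vesicle-associated proteins of neurons, had 33 and 60 reads in double negative replicates 1 and 2. None of the 33 genes of the neuron list or of the 31 genes of the neural progenitor and glia list was among the genes analysed here, so these genes stand without general neural markers beside them.

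Others are known from epithelia, although none of them is in the periderm or other epithelial lists. The gene *kdf1a*, a differentiation factor of keratinocytes in mammals, had 0 reads in each Venus positive library, against 25 and 42 reads in the double negative libraries. *prkchb*, an eta-type protein kinase C, a form known from epithelia of mammals, had 0 reads in each Venus positive library, against 35 and 30 reads. *nectin4a*, in the table under an automatic identifier and encoding an adhesion molecule of adherens junctions, had 30 and 85 reads in double negative replicates 1 and 2 and thus differed by 3.53-fold between them in normalized reads.

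Of a list of 50 genes of the periderm, the outermost larval skin layer, and superficial epidermis, *zgc:100868* was the only one at 0 in the Venus positive libraries. Another 20 were lower with reads left, among them *agr1*, *cyt1*, *icn2* and *cldne*, 2 were higher in the Venus positive cells (*ahnak* and *pkp3b*) and 27 were not analysed here. The 20 lower genes kept 1.21% to 23.9% of the double negative level, with a median of 7.46%. The lower genes of the list, *zgc:100868* included, summed to 7089 and 8427 reads in the Venus positive libraries, against 105318 and 131883 reads in the double negative libraries. With the 2 higher genes the sums were 18541 and 16788 reads in the Venus positive libraries, against 107170 and 135158 reads in the double negative libraries. Reads of skin genes were thus present in the Venus positive libraries.

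The other genes with gene names encode enzymes, receptors and proteins of other kinds, and no cell type is read from them here. *elovl6l*, a fatty acid elongase, had 0 reads in each Venus positive library, against 72 and 45 reads in the double negative libraries. *h6pd*, the hexose-6-phosphate dehydrogenase that makes NADPH in the endoplasmic reticulum, had 93.6 and 41.5 reads in double negative replicates 1 and 2, and *sult1st4*, a cytosolic sulfotransferase, had 59 and 44 reads. *mmel1*, a membrane metalloendopeptidase that cleaves small peptides, had 30 and 32 reads and shared the lowest mean of the 57 genes with *crybb1l3*. *pla2g4f.1*, a cytosolic phospholipase A2, had 30 and 37 reads in the double negative libraries, *entpd2a.2*, an enzyme that breaks down extracellular nucleotides, had 62 and 44 reads, and *tmprss5*, a membrane-bound serine protease, had 49 and 26 reads. *galnt17*, a transferase of the family that starts mucin-type O-glycans, had 78 and 17 reads, and 2 receptor genes had the reverse order, *gpr78a*, an orphan G protein-coupled receptor, with 14 and 84 reads and *paqr5b*, a membrane progestin receptor, with 24 and 41 reads. *btr02* and *btr30*, both of the bloodthirsty-related family of TRIM proteins, had 89 and 56 reads and 46.15 and 31.7 reads in the double negative libraries. *jac10*, of the jacalin-type lectins, had 88.0 and 49 reads, and *c6.1*, a complement component listed as *LOC798694*, had 34.1 and 55.2 reads. The remaining genes with gene names were *tspan37*, a tetraspanin with 44 and 67 double negative reads, and *pimr60*, a Pim-related kinase with 18.6 and 62.0 double negative reads.

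Across all 29 lists of cell type markers, 7 of the 57 genes fell into 5 lists, and 50 fell into none. Of the other 211 lower genes, 20 fell into the periderm list and 7 into the erythrocyte list. The lens and muscle lists held 1 each of these, and the thyroid list 0. More of the 211 fell into the 7 lists named below that held none of the 57, so these counts are not their total. The share of all 756 genes in the 29 lists was not counted, so 7 of 57 is not read as many or few. Beside the erythrocyte, periderm, lens and muscle lists, the thyroid list of 6 genes held *duox*, and its other 5 genes, the thyroglobulin gene *tg* among them, were not analysed here. A further 7 lists had lower genes with reads left but none of the 57, including pigment cells (*oca2*, *pmela*, *pnp4a* and *sox10*), photoreceptors (*arr3b* and *rho*), the otic vesicle (*otomp* and *tectb*), ionocytes (*atp1a1a.4*), neutrophils (*pnp5a*), the hatching gland (*he1a* and *he1b*) and cardiomyocytes (*hand2*). Of these, the pigment list also held 2 genes higher in the Venus positive cells (*pts* and *xdh*) and the cardiomyocyte list 1 (*vmhc*). In 6 lists only genes higher in the Venus positive cells were present, 1 gene each: *hmcn1* for basal epidermis, *foxp4* for secretory epithelium, *arpc1b* for macrophages and other leukocytes, *thbs1b* for thrombocytes, *foxa1* for pharyngeal endoderm and *col2a1b* for cartilage. The other 11 lists, among them those of endothelium, neurons, hair cells, pituitary and liver, had no gene in the table.

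The automatic identifiers included cathepsin L genes. In the order of protein-coding genes in RefSeq, 6 of the 57 lie on a stretch of 16 genes: *zgc:174855*, *si:dkey-269i1.3* and *si:dkey-269i1.4*, which have the synonym *ctsl*, *LOC100536033*, listed as *ctslb.4*, and between these *si:dkey-239j18.3* and *wu:fa26c03*. In RefSeq *si:dkey-239j18.3* and *wu:fa26c03* carry no cathepsin name or synonym, and they were counted with the others by their place. The stretch also holds *ctslb*, a cathepsin known from the hatching gland, which was not analysed here. The highest of the 6, *zgc:174855*, had 0 reads in each Venus positive library, against 166 and 146 reads in the double negative libraries (13.4 TPM). For *si:dkey-269i1.4* the double negative values were 4.16 and 121 reads and for *si:dkey-269i1.3* 34.95 and 127.5 reads, so both were higher in replicate 2. *LOC100536033* had 66.2 and 43.4 reads, *si:dkey-239j18.3* 59.75 and 41.6 reads and *wu:fa26c03* 60.2 and 71.8 reads.

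None of these 6 genes had whole counts in the double negative libraries. RSEM gives such counts where reads match several copies and are divided among them. All gave 11.6 to 11.9 reads per TPM, as transcripts of like length do. Values of single copies are therefore uncertain. Summed over the 6 genes the double negative libraries had 391 and 552 reads, or 321 and 565 normalized reads, which is 1.76-fold apart, while the single genes were up to 30.4-fold apart. The sum over these 6 genes, each chosen for its 0 reads, stood at 40.2 TPM in the double negative cells. It was at least 137-fold lower in the Venus positive cells. *MGC174155*, a neighbor in the same stretch, had 4 and 0 reads in the Venus positive libraries, against 138 and 169 reads in the double negative libraries, so the stretch as a whole was not at 0. Its double negative counts were not whole either, so the limit holds for the 6 genes as counted and not for the family. The hatching enzyme genes *he1a* and *he1b* had 21 and 22.6 reads and 0 and 4.37 reads in the Venus positive libraries, against 205 and 219 reads and 97.5 and 109 reads in the double negative libraries.

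The draculin genes were a second such family. *drl*, *drll.1* and *drll.2* follow each other in the RefSeq gene order, the models of *drl* and *drll.1* overlap there, and all 3 had counts that were not whole. Singly they were 1.17-fold to 2.55-fold apart between the double negative libraries, and summed they were 1.03-fold apart, with 137 and 106 reads or 113 and 109 normalized reads. The sum over these 3 genes, each chosen for its 0 reads, was at least 35.4-fold lower in the Venus positive cells. Singly the limits were at least 12.3-fold for *drl*, 9.18-fold for *drll.1* and 13.8-fold for *drll.2*. The limit of the sum holds for the 3 genes as counted. In all, 15 of the 57 genes (26.3%) had a count that was not whole, against 25 of the other 211 lower genes (11.8%) and 78 of the 756 genes of the table (10.3%).

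Other close relatives of the 57 genes kept reads in the Venus positive cells. *jac10* lies next to *aep1*, a further jacalin gene by its synonym *jac5*, and *aep1* had 371 and 934 reads in the Venus positive libraries, against 2889 and 2307 reads in the double negative libraries. Both *jac10* and *aep1* had a count that was not whole, so their single values are uncertain as well. *fut9d*, a relative of *fut9b* and the neighbor of *zgc:86586*, had 37 and 30 reads in the Venus positive libraries, against 1620 and 1574 reads in the double negative libraries. Per length, *aep1* stood at 171 TPM and *fut9d* at 91.2 TPM in the double negative cells, where *jac10* stood at 5.76 TPM and *fut9b* at 7.30 TPM.

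The double negative libraries agreed only in part on the 57 genes. Of these, 16 (28.1%) were more than 2-fold apart in normalized reads, against 21.8% of the 742 genes of the table with reads in both double negative libraries. Among other lower genes with no more mean reads than the highest of the 57, 28 of 118 (23.7%) were as far apart. The share of the 57 genes was close to these. The 118 were limited at the upper end only and not matched in level to the 57. The differences of the 57 genes had no common direction, with 28 genes higher in replicate 1 and 29 higher in replicate 2. Their median log2 ratio of replicate 1 over replicate 2 was -0.06. The rest of the table leaned to replicate 2. Over all listed genes 250 were higher in replicate 1 and 492 in replicate 2 (median -0.315). Over the other 211 lower genes the counts were 75 and 136 (median -0.296). Among the 57, the extremes were *si:dkey-269i1.4* at -4.92 and the uncharacterized *LOC101884757* at 2.54. The latter had 0 reads in each Venus positive library, against 145 and 20 reads in the double negative libraries. Of the genes with gene names, *gpr78a* was 7.47-fold, *pimr60* 4.13-fold, *galnt17* 3.69-fold and *crybb1l3* 3.58-fold apart, and *fut9b*, *prkchb* and *sult1st4* were within 1.08-fold. Across the genes, Pearson's r of log2 normalized reads between the double negative libraries was 0.25 (Spearman's rho 0.095, 57 genes). It was 0.66 (rho 0.73) over the same 118 other lower genes, not matched in level, and 0.946 (rho 0.931) over all 211. The narrow range of levels among the 57 genes enters these values, and genes of a library share its depth and are not replicates.

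**Figure D3:**
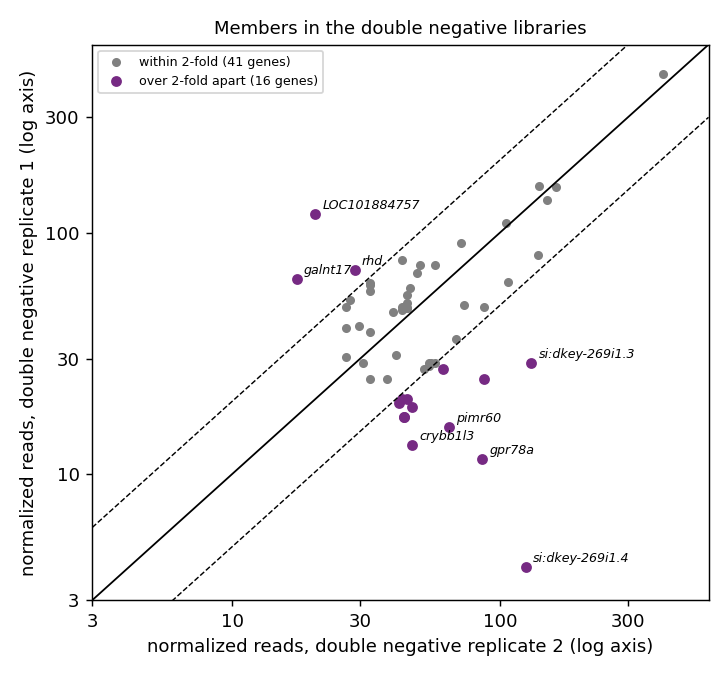
Normalized reads of the 57 genes in double negative replicate 1 (vertical, log axis) against replicate 2 (horizontal, log axis), with the line of equal values and dashed lines at 2-fold. Dark points are the 16 genes more than 2-fold apart and grey points the 41 others. *si:dkey-269i1.4* lies farthest from the line at 30.4-fold, and *zgc:154054* at the upper right lies close to it.

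Having 0 reads in the Venus positive libraries went with a low level in the double negative cells. Among the lower genes of the table, the 3 left out by symbol included, 29 of 32 genes with a mean under 50 double negative reads had 0 Venus positive reads (90.6%). The share was 24 of 49 (49.0%) for a mean of 50 to under 100 reads, 6 of 40 (15%) for 100 to under 200 reads, 1 of 58 (1.72%) for 200 to under 500 reads and 0 of 92 for 500 reads or more. The lower genes with Venus positive reads kept a median of 2.47% of the double negative level in the lowest of these classes, 2.71%, 4.75% and 9.72% in the next 3 and 15.8% in the highest. The table holds only genes past the authors' threshold, so a gene with few double negative reads could be listed as lower only with next to no Venus positive reads. *zgc:154054* was the only gene at 0 with 200 double negative reads or more.

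**Figure D4:**
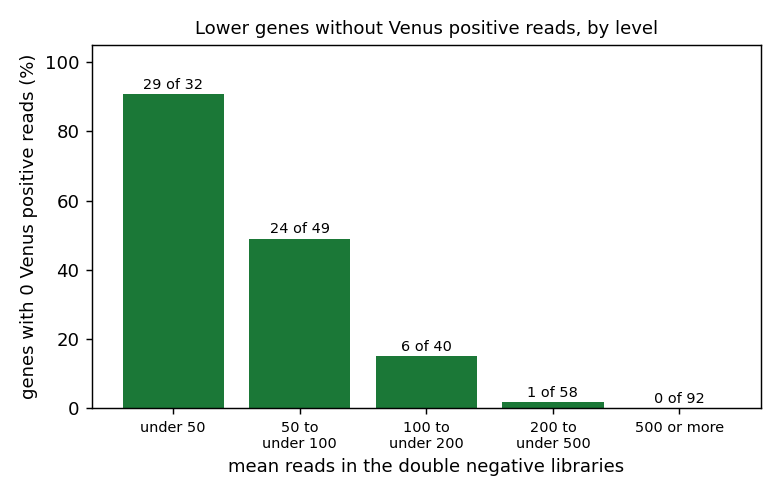
Share of the 271 lower genes that had 0 reads in both Venus positive libraries (vertical, percent) by their mean reads in the double negative libraries (horizontal). Numbers above the bars are genes at 0 of all lower genes in the class, and the share is 90.6% under 50 reads and 0 of 92 at 500 reads or more.

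**Figure D5:**
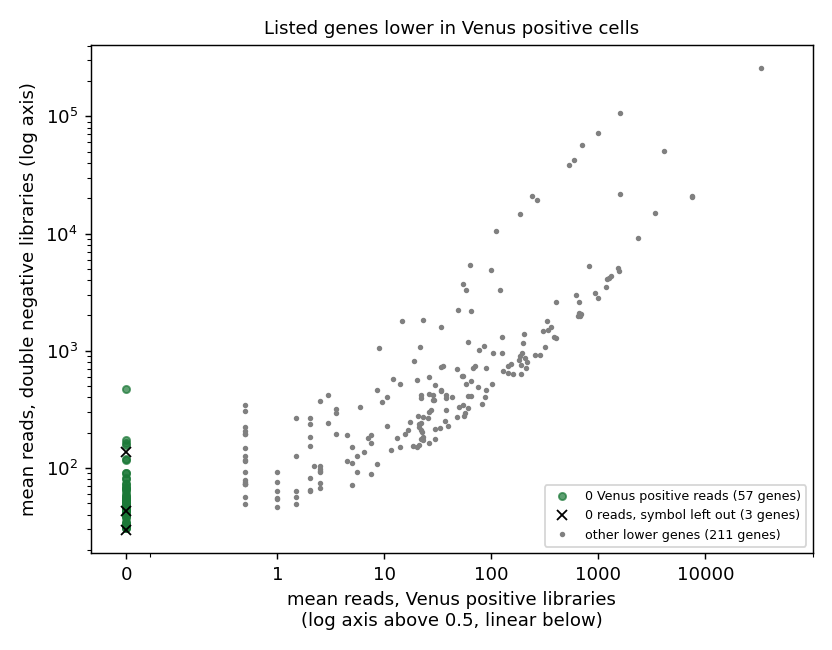
Mean reads in the Venus positive libraries (horizontal, linear below 0.5 and logarithmic above) against mean reads in the double negative libraries (vertical, log axis) for the 271 lower genes. The 57 genes (circles) and the 3 left out by symbol (crosses) stand at 0 and between 29.5 and 473.5 double negative reads, and the other 211 lower genes (dots) run up to 259558 double negative reads.

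The step between the genes at 0 and their neighbors in the table was small. A total of 27 lower genes had 1 to 3 reads in all in the Venus positive libraries, of which 17 had 1 read, 6 had 2 reads and 4 had 3 reads. Some belong to lists that also hold genes at 0, and others do not. *klf1*, a transcription factor that acts with Gata1 in red cells, had 1 and 0 reads in the Venus positive libraries, against 58 and 87 reads in the double negative libraries. *npvf*, a neuropeptide gene of the hypothalamus, had 1 and 0 reads, against 197 and 415 reads, and at 27.2 TPM in the double negative cells it stood above all of the 57 genes per length. Of the genes of the eye, *arr3b*, a cone arrestin, had 0 and 2 reads in the Venus positive libraries, against 76 and 75 reads in the double negative libraries. Of epithelial genes, *atp1a1a.4*, a sodium pump subunit of ionocytes, had 1 and 0 reads, against 160 and 74 reads, and *grhl1*, a transcription factor of epithelia, had 1 and 2 reads, against 57 and 56 reads. The highest of the 27 by reads was *ponzr4* with 1 and 0 reads in the Venus positive libraries, against 312 and 380 reads in the double negative libraries. The others with gene names were *ponzr3*, *muc13a*, *cmah*, *pvalb2*, *gna14*, *inaa*, *hif1al2*, *gpr17*, *plac8l1*, *gfra2b*, *mia*, *nbeal2*, *vstm5* and *ap1m3*, and those with automatic identifiers were *si:ch1073-340i21.3*, a gene that RefSeq lists as *chs3*, *wu:fc34e06*, *zgc:136892*, *si:dkey-239b22.2*, *si:dkeyp-98a7.1* and *si:dkey-17e16.17*. Just inside the threshold, the lowest of the 57 genes were *crybb1l3* and *mmel1* at a mean of 31 double negative reads.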

How the data were processed

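The authors sorted the cells, prepared Smart-seq2 libraries, filtered reads with SOAPnuke and aligned them to GRCz11 (HISAT2 2.0.4) and to the gene set (Bowtie2 2.4.4). For each library the deposited table gives RSEM 1.2.28 expected counts, called reads here, which the authors left unrounded. The authors' normalized reads are a signal made by dividing the count, raised to a whole number, by a size factor (1.22 in double negative replicate 1 and 0.978 in replicate 2, worked out from matched columns). The group averages of normalized counts and TPM are the authors' deposited values, used without SD. The group average divides the mean count by one scale per group (0.934 for Venus positive and 1.07 for double negative), also recovered. The deposited Q value (an adjusted p-value) was used only to see that all 756 genes lie under 0.05. The other columns of the authors' comparison (22 in all with the Q value), which hold fold changes, p-values and similar values, were not used, nor were 8 columns of values per Venus positive library, because the table numbers these libraries 3 and 4 and the labels 1 and 2. Of these libraries only the counts entered, by group and without a replicate number.

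Members and lists were chosen with earlier results of these data known. Genes with 0 reads in both Venus positive libraries were taken, without *gfi1b* and symbols starting with hb, krt or slc. No test was made, because the choice used the contrast. The lower bound of a fold is the double negative mean divided by its scale, over 3 reads divided by the Venus positive scale. The double negative mean entered it without an error. Named by rule are all members with gene names (31, no colon and not starting with LOC), the automatic identifiers highest by reads (2) and the genes with 1 to 3 Venus positive reads in all. Markers came from 29 lists written from general knowledge of zebrafish cell types and were matched by symbol and by NCBI gene ID. Genes of a list given as not analysed here were looked up and were not among the 756 genes of the table. RefSeq names (assembly GRCz12tu) were found for 55 of 57 members, and that table served only for names and gene order. Calculations used Python 3.11.15, pandas 2.3.3 and numpy 2.4.6. The rule of 0 reads, the rule on symbols and the recovery of the group scale were tested on simulated data, and the other calculations were not. Alternatives changed the limit on Venus positive reads, the libraries, the scaling, the floor and the matching.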

Additional observations from a re-analysis of the deposited data

How the results depend on the processing

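The number of genes depended on the limit set on Venus positive reads. It was 57 at 0 reads, 88 at up to 3 reads and 110 at up to 10 reads in each library, and 6 of the 57 had a mean of at least 100 double negative reads. The Venus positive libraries numbered 3 and 4 alone gave 85 and 71 genes, up to 1 read gave 76, and leaving out no symbol gave 60. The median lower bound was 14.7-fold, and it was 44.2-fold with a floor of 1 read, 16.9-fold with raw reads, 14.5-fold scaled to the total of listed genes, and 14.0-fold to 14.8-fold without a double negative replicate. The cell type lists held 14 of the genes with up to 10 reads and 7 of those at 0 reads, also 7 when matched by gene ID. Of the 10 genes highest by reads, 10 were kept with normalized reads, 7 with TPM and 8 without either double negative replicate. The genes over 2-fold apart between the double negative libraries numbered 16, against 17 with raw reads and 18 scaled to the listed total. The count that sets the precision is low, with 31 to 473.5 double negative reads per gene. No paired analysis was possible because the results come from no test and the Venus positive columns carry no replicate number of the labels.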
